A study of Mus musculus with 13 samples.

Results

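The nuclear share of a transcript, its value in the nucleus over its value in the cytoplasm, was compared between MTR4-null and WT mouse oocytes for 11432 of 23235 genes in the deposited table (49.2%). The genes were kept when 2 or more of the 4 columns (nucleus and cytoplasm, each of WT and of null) held a value of 5 or above. Per the labels, each library held polyadenylated RNA of 10 nuclei or 10 cytoplasms, separated by micromanipulation and copied with Smart-seq2, a low-input method. The series lists 13 libraries: WT nuclei at day 14 (2) and day 21 (3), WT cytoplasms at day 14 (2) and day 21 (2), and null nuclei and null cytoplasms at day 21 (2 each). The WT columns name no day, so whether day 14 libraries entered them is unknown. A difference of genotype therefore cannot be told apart from a possible difference of age. The allele or Cre driver behind the null genotype, the strain and the number of animals pooled are not given in the sources used here. Each gene had 1 value per column, so no difference could be set against a spread between libraries and no p-value is given.

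MTR4 is an RNA helicase of the nucleus that unwinds RNA and threads it into the exosome, the complex that degrades RNA from its 3' end. It works within adaptor complexes: TRAMP adds short tails to aberrant RNAs, NEXT brings in promoter upstream and enhancer RNAs, and PAXT brings in polyadenylated nuclear RNAs. MTR4 can also compete with export adaptors for capped transcripts, and growing oocytes store large amounts of mRNA in the cytoplasm.

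The change in nuclear share was the log2 ratio of nucleus over cytoplasm in null minus the same in WT, with 1 added to each rescaled value. It is also the null minus WT difference in the nucleus less that in the cytoplasm. The columns were rescaled with median ratios, because their totals as deposited ran from 594034 (WT nucleus) to 6637350 (WT cytoplasm). This centres the genes, so that a change describes a gene against the typical gene. As deposited, the median change was 1.83, against 0.07 after rescaling, and the nuclear share of 8881 genes was at least 2-fold higher in null while that of 254 was lower. Which way the typical gene moved therefore depends on the column scale, about which the sources used here say nothing. The depth in reads is unknown. Values quoted for genes are as deposited, and 4 values in a row give first the nuclei (WT, then null) and then the cytoplasms (WT, then null).

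After rescaling, the nuclear share of 1817 genes was at least 2-fold higher in null (15.9% of those kept) and that of 1714 was at least 2-fold lower (15%). A 4-fold difference was reached by 321 genes upward (2.81%) and 433 downward (3.79%). The share lay within 2-fold for 7901 genes (69.1%), with quartiles of the change at -0.60 and 0.71 and an SD over genes of 1.25. High values did not narrow this spread much. Among 1673 genes with at least 50 in every column the SD was 1.05, and 23.7% were past 2-fold. Of the kept genes, 1370 were under 5 in both nuclei, and 39 were under 5 in both cytoplasms. Such a gene passed the filter only through the other compartment. At the limit, Grasp (second highest value 5.01, change 0.02) and Reln (5.01, 0.82) were just kept, while Rgl1 (4.99, -0.37) and Zfp934 (4.99, -1.78) were just left out.

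**Figure D1:**
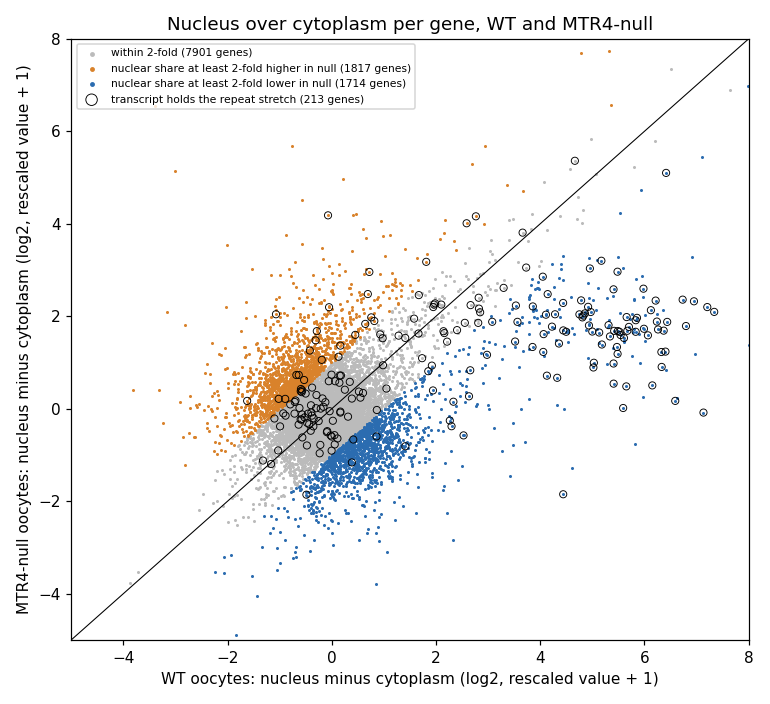
Nucleus minus cytoplasm (log2 of the rescaled value plus 1) in WT oocytes on the x axis and in MTR4-null oocytes on the y axis, 1 point per gene, with the line of equal values. Orange marks the 1817 genes with a nuclear share at least 2-fold higher in null and blue the 1714 with one at least 2-fold lower, circles mark 213 genes whose transcript holds the repeat stretch described in the text, and 69 genes lie outside the axes of -5 to 8. Many circled genes sit at the right edge of the cloud, high in the nucleus in WT and below the line.

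Skiv2l2, the gene of MTR4 itself, had values of 13.3, 3.54, 187 and 4.36, in the order just given. Both null values lay below the WT value of the same compartment. The rescaled difference of null from WT was -2.82 (nucleus) and -4.05 (cytoplasm), which makes a change in nuclear share of 1.24. This change was under 2-fold when 5 instead of 1 was added.

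The order of genes by compartment was compared between the genotypes. Across the 11432 genes the Spearman correlation of nucleus minus cytoplasm in WT with that in null was 0.082; it was -0.012 over 6746 genes at 5 or more in every column, and -0.14 over 1673 genes at 50 or more. Genes are not independent points, and the columns of each genotype share a scale. Sides were taken against the median gene of each genotype. Of 1248 genes at least 2-fold nuclear in WT, 530 were so in null as well (42.5%, against 10.9% of all kept genes), 627 lay between and 91 were at least 2-fold cytoplasmic. Of 599 cytoplasmic genes, 103 were so in null (17.2%, against 7.70% of all kept genes), 446 lay between and 50 were nuclear. The cytoplasmic counts depend most on low values: with at least 5 in all 4 columns 143 genes were cytoplasmic in WT and 12 of these in null, against 682 and 267 nuclear ones. Since the change subtracts the WT difference, a gene picked as nuclear in WT has a lower change in part by construction. How much of the shift that accounts for was not tested.

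Some genes crossed from one side to the other. Bst2, which encodes tetherin, a membrane protein that holds back budding viruses, had 19.8, 11.1, 45.1 and 255. After rescaling, its nucleus minus cytoplasm difference went from 2.33 in WT to -2.85 in null. Rrs1, a ribosome assembly factor of the nucleolus, had 3.84, 12.7, 9.86 and 111, with nucleus minus cytoplasm going from 1.91 to -1.47. Ubqln2, a shuttle protein of the proteasome, had 14, 13.2, 51.4 and 135, going from 1.66 to -1.70. In these 3 genes the null cytoplasm stood above the WT cytoplasm while the nuclear values differed less. Tert, the catalytic subunit of telomerase, crossed the other way. Its values were 1.66, 9.94, 62.1 and 6.16, and nucleus minus cytoplasm went from -1.48 to 2.01. Trmu, a mitochondrial tRNA-modifying enzyme, had 3.69, 10.8, 124 and 12.1, going from -1.41 to 1.31. Scand1, a SCAN domain protein, had 17.1, 338, 567 and 383, going from -1.44 to 1.42.

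A changed share can come from either compartment. Of the 1817 genes with a higher share in null, 635 had a cytoplasmic value at least 2-fold lower with the nucleus within 2-fold, and 501 had a nuclear value at least 2-fold higher with the cytoplasm within 2-fold. Another 260 were higher in both compartments and 86 lower in both, 41 were higher in the nucleus and lower in the cytoplasm, and 294 passed 2-fold in neither alone. Of the 1714 with a lower share, 486 had only a higher cytoplasm, 470 only a lower nucleus, 335 were higher in both, 72 lower in both, 53 lower in the nucleus and higher in the cytoplasm, and 298 past 2-fold in neither. Nuclear medians of null minus WT were 0.78 for the first set and -0.56 for the second, and cytoplasmic ones -0.76 and 1.03. In these bulk libraries, fewer nuclei or cytoplasms carrying a transcript and less of it per compartment cannot be told apart. These counts depend on the divisors and on the filter. With divisors from genes at 20 or more in all columns, the cytoplasm was at least 2-fold lower in 436 genes of the higher set, against 762, and the nucleus at least 2-fold lower in 357 genes of the lower set, against 595. With at least 5 in all 4 columns, 147 genes of the higher set had a nucleus at least 2-fold higher (against 802) and 555 a cytoplasm lower (against 762), while 410 of the lower set had a cytoplasm higher (against 874) and 355 a nucleus lower (against 595).

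The genes named next are the 15 lowest and 15 highest by change among 9915 ranked genes, which had at least 1 in every column and are no small RNA genes. Called the same way with 0.1, 1 or 5 added were 1089 of these upward and 1103 downward. At the low end, 14 of the 15 were at least 2-fold nuclear in WT, against 1248 of all 11432 kept genes. A cytoplasmic value at least 4-fold higher in null was seen in 14, and a nuclear value at least 2-fold higher in 9. The genes were picked by a change that subtracts the WT difference and the cytoplasmic difference of null from WT. These counts are thus set in part by that choice and are no test. In null, 8 of the 15 lay within 2-fold between the compartments. Of the other 7, Gm5531, Rplp2-ps1, Tapbpl and A330069E16Rik stayed nuclear (2.09, 1.38, 1.24 and 1.19 on the rescaled log2 scale), and Rps27, Bst2 and Ankfy1 were cytoplasmic (-6.88, -2.85 and -1.85). The 1 gene not nuclear in WT was Rps27 (-0.39).

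Slfn5, a member of the Schlafen family, had 168, 1154, 11.1 and 3724. Only its WT cytoplasm was low, and the change of -7.22 was the lowest of the ranked genes. Mfsd11, of the major facilitator family, had 268, 1547, 42.3 and 3322 (change -5.65). Ankfy1, an endosomal protein that binds Rab5, had 96.9, 154, 50.8 and 1691 (change -6.29). Its nuclear values differed little, unlike its cytoplasmic ones. Tapbpl, a relative of tapasin in antigen loading, had 55.5, 725, 4.59 and 937 (change -5.17), so both compartments were higher in null. Nanog, a transcription factor of pluripotent cells, had 149, 543, 15.3 and 1471 (change -6.42). Reads of any pseudogene copies cannot be told apart from its own here. Sap18, a subunit of histone deacetylase and splicing complexes, had 335, 968, 37.9 and 2530 (change -6.40).

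Cyp2e1, a cytochrome P450 that oxidises ethanol, stood at 21, 120, 1.95 and 362 (change -5.58). Dennd5b, which has a DENN domain, stood at 130, 474, 16.2 and 772 (change -5.43). Cd300a, an inhibitory receptor of leukocytes, stood at 40.2, 335, 6.35 and 729 (change -5.17). Each was above its WT value in both null columns, by more in the cytoplasm. Ppp1r16b, a regulatory subunit of protein phosphatase 1, followed the same order with 97.8, 622, 10.6 and 1064 (change -5.58). So did the noncoding RNA gene A330069E16Rik, with 2708, 16107, 259 and 21467 (change -5.77), and Gm5531, with 486, 4512, 33 and 3218 (change -5.24). An exception was Rps27, a ribosomal protein gene of the small subunit, with 153, 4.51, 2432 and 1832 (change -6.49). Here the cytoplasms were close and the null nucleus was low. Rps27 and the pseudogene Rplp2-ps1 (273, 1521, 9.49 and 1779, change -6.62) have near-identical copies, so their values are uncertain.

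Of these 15 transcripts, 9 hold 1 short sequence, the stretch shown here in capitals for 8 of them, each in the 3' UTR. It belongs to the B2 repeat, a short interspersed element of rodents that RNA polymerase III can transcribe and that is scattered through introns and UTRs. A search of 25-base stretches in the transcripts of genes with a share at least 4-fold lower had picked it, so its count there is a description with no test. Coordinates are those of GRCm38, from the match to GENCODE M21 transcripts, while the deposited values name mm9. Each is printed as the transcript reads, to show that the same letters recur in unrelated genes.
Slfn5, chr11:82963841-82963870, 3' UTR, sense: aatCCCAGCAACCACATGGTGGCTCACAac
Ankfy1, chr11:72771953-72771982, 3' UTR, sense: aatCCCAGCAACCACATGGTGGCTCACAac
Mfsd11, chr11:116875521-116875550, 3' UTR, sense: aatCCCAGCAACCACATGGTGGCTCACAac
Cyp2e1, chr7:140774861-140774890, 3' UTR, sense: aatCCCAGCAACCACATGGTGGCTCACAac
Dennd5b, chr6:148990173-148990202, 3' UTR, sense: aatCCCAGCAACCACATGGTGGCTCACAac
Nanog, chr6:122713718-122713747, 3' UTR, reverse complement: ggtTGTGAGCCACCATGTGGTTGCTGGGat
Gm5531, chr1:153876434-153876463, 3' UTR, reverse complement: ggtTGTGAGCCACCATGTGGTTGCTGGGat
Cd300a, chr11:114902027-114902056, 3' UTR, reverse complement: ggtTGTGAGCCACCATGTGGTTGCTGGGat

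The stretch or its reverse complement lay in 74 of 421 genes with a share at least 4-fold lower and a GENCODE transcript (17.6%), and in 28 of the 77 at least 16-fold lower (36.4%). It lay in 1.35% of 1263 genes that were 2-fold to 4-fold lower, 1.26% of 7800 within 2-fold, 1.36% of 1473 that were 2-fold to 4-fold higher and 1.27% of 314 at least 4-fold higher. Over all 11271 genes with a transcript it was in 213 (1.89%), in the sense direction in 127 and as the reverse complement in 87, most often in a 3' UTR (119 and 74). The share thus stood out only among the genes past 4-fold on the low side, the set it was picked from. Of the 213, 91 had a lower nuclear share in null (42.7%) and 24 a higher one (11.3%). Both compartments were higher in null, with medians of 1.67 (nucleus) and 2.40 (cytoplasm), and 121 were at least 2-fold nuclear in WT against 113 in null.

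**Figure D2:**
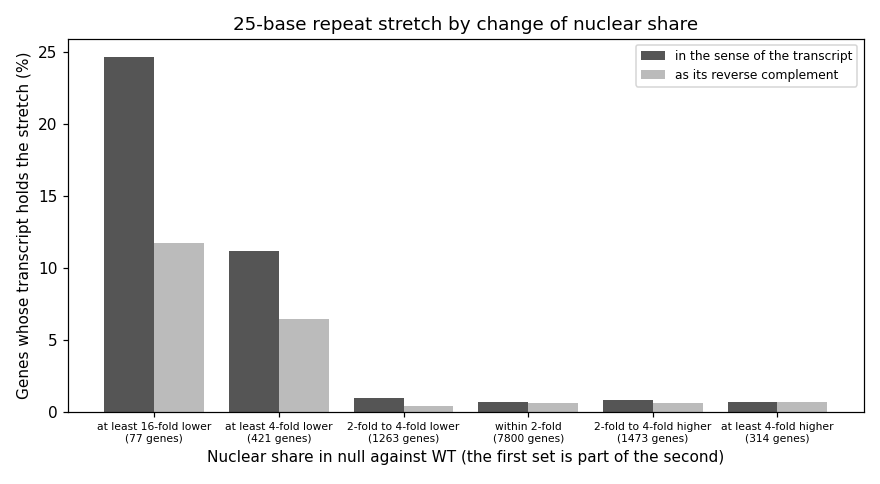
Percent of genes (y axis) whose transcript holds the 25-base repeat stretch in the sense direction (dark bars) or as its reverse complement (light bars), for sets of genes by their change in nuclear share (x axis, number of genes in brackets). The bars reach 11.2% and 6.41% in genes at least 4-fold lower and lie under 1% in each direction in the sets from 2-fold to 4-fold lower upward.

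Of the genes with the stretch 56.8% were nuclear in WT, against 9.92% of those without it. The stretch was picked from genes at least 4-fold lower, and the change subtracts the WT difference. The contrasts given here of genes with and without it are thus set in part by that choice, and are no test. Among WT-nuclear genes, the median change was -2.68 in the 121 with the stretch (72.7% at least 2-fold lower) and -1.18 in the 1097 without it (56.5%). Among the 90 genes with the stretch that lay between the compartments in WT, the median change was 0.38, with 3 lower and 20 higher, against 0.11 in the 9368 without it. Of the 91 genes with the stretch and a lower share, 88 were thus nuclear in WT. Reads from other copies of the repeat, elsewhere in the genome or in introns, could count toward these genes. Their part in the values was not tested. Without the genes that hold the stretch, 1793 genes were higher and 1623 lower.

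At the high end, 12 of the 15 genes had a cytoplasmic value at least 2-fold lower in null, and 10 had a nuclear value at least 2-fold higher. In WT, 3 were at least 2-fold cytoplasmic, against 599 of all 11432 kept genes. The choice of genes by their change sets these counts in part as well. Only Harbi1, among these 15, holds the stretch. Pnpla3, a triglyceride lipase of lipid droplets, had 107, 104, 1944 and 12.1, the highest change at 5.09. Its nuclear values were alike as deposited (-1.15 after rescaling), and its cytoplasmic value was low in null (-6.24). Atp6v0c, the proteolipid subunit of the proton pump of lysosomes, had 26.0, 41.3, 1434 and 54.1 (change 3.36). Mef2b, a MADS box transcription factor, had 28.2, 61.7, 606 and 21.4 (change 3.85). Ifi30, a thiol reductase of lysosomes, had 6.18, 24.8, 161 and 13.1 (change 3.44). In all 4 of these genes the WT cytoplasm held the highest value and the null cytoplasm was far below it.

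Wdfy1, an adaptor on early endosomes, had 3.18, 18.2, 59 and 3 (change 4.14). Siglece, a sialic acid receptor of myeloid cells, had 3.39, 16.1, 69.4 and 3.82 (change 3.88). Cbr3, a carbonyl reductase, had 1.17, 7.24, 39.1 and 4.52 (change 3.18). In these low genes the null nucleus stood above WT and the null cytoplasm below, as it did in Mpp7, a scaffold protein of cell junctions (2.01, 22.1, 14.9 and 2.84, change 3.28), and in Ikbip (1.86, 10.5, 38.1 and 3.64, change 3.30). A different make-up was seen in Harbi1, a gene derived from a transposase, with 1.64, 69.6, 45.6 and 50.1 (change 3.12), and in the noncoding RNA gene E330020D12Rik, with 13.5, 672, 352 and 437 (change 3.31). Both of their compartments were higher in null, the nucleus by more (4.09 and 4.5 on the log2 scale, against 0.97 and 1.19 in the cytoplasm). Gm15441 (2.91, 45.7, 82.7 and 33.6, change 3.15) was mainly higher in the nucleus too, by 2.76. Wfdc1 (4.29, 28.7, 114 and 18.5, change 3.21) was higher in the null nucleus, by 1.58, and lower in the null cytoplasm (-1.63). For 9530026F06Rik (3.09, 7.21, 67 and 1.41, change 3.66) the cytoplasm was the part that differed.

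**Figure D3:**
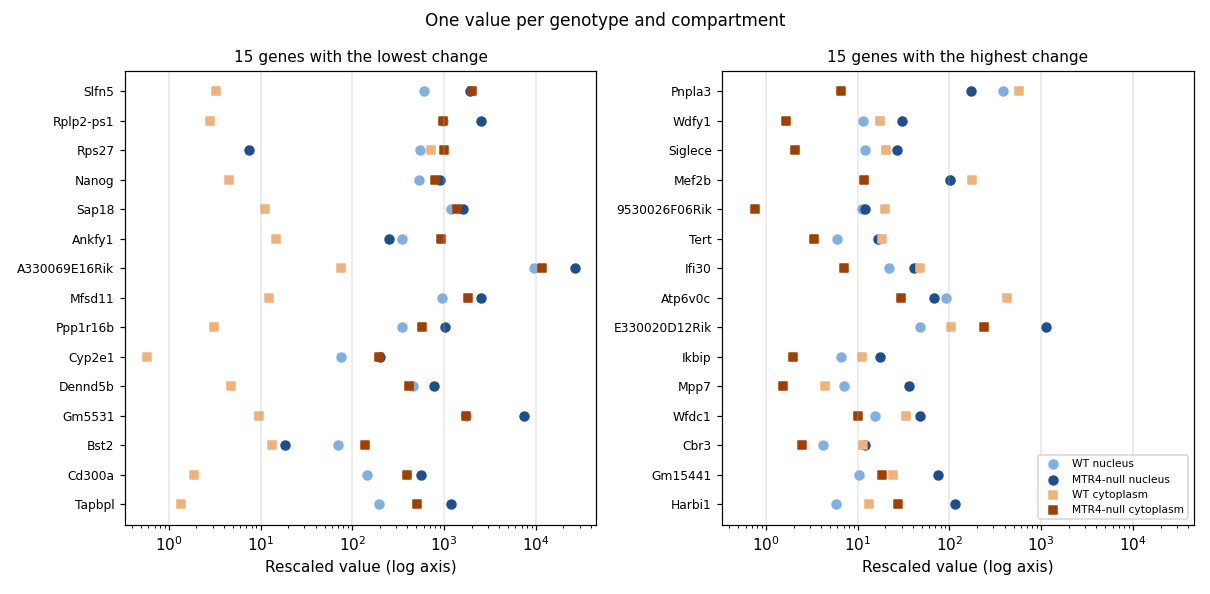
Rescaled values (log x axis) of the 15 ranked genes with the lowest change in nuclear share (left) and the 15 with the highest (right), with circles for nuclei, squares for cytoplasms, light colours for WT and dark colours for null. On the left the WT cytoplasm lies apart to the left in nearly every gene, and on the right the null cytoplasm is the lowest point in most genes.

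The machinery of nuclear RNA decay was described first. The reference for each list was all kept genes, with a median change of 0.07, 15.9% higher and 15% lower. Of 16 genes of MTR4 and its partner complexes, 1 was higher (Skiv2l2, 6.25%) and 3 were lower (18.75%), with a median change of -0.19. Papd5, the poly(A) polymerase of TRAMP, had 16, 15.9, 91.8 and 77.7 (change -1.72). Rbm7, the RNA-binding subunit of NEXT, had 97.2, 52.4, 1319 and 538 (change -1.58). Relative to the typical gene, both were lower in the null nucleus (-1.09 and -1.98 on the log2 scale). Papd7, another noncanonical poly(A) polymerase, had a change of -1.19. After centring within bins of transcript GC content, Rbm7 stood at -0.73, inside 2-fold. Zc3h3, a zinc finger protein of the polyadenylated RNA pathway, lay nearest the list median at -0.07.

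Of the 14 exosome genes, 3 were higher (21.4%) and 1 lower (7.14%), with a median of 0.24. Exosc4, a core ring subunit, had 22.8, 111, 847 and 208 (change 2.30), and Exosc5, another ring subunit, had 24.3, 62.6, 533 and 136 (change 1.33). Exosc10, the nuclear exonuclease of the complex, had 26.2, 31.1, 432 and 51.8 (change 1.29, and 0.98 after GC centring). In these 3 the cytoplasm was lower in null (-1.13, -1.08 and -2.13), and for Exosc4 the nucleus was also higher (1.17). The one lower was Exosc2, a cap subunit, with 486, 2975, 178 and 4884 (change -4.13). Its transcript holds the B2 stretch, and its null cytoplasm stood 5.64 above WT on the log2 scale.

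Among 49 genes of the nuclear pore and mRNA export, 4 were higher (8.16%) and 7 lower (14.3%, near the 15% of all genes), with a median of -0.10. Thoc5, a subunit of the THO complex that couples transcription to export, had 9.82, 8, 175 and 5.95 (change 2.29). Xpo1, the exportin of proteins with a nuclear export signal, had 11.1, 39.9, 97.5 and 41.1 (change 1.07), and Xpo5, the exportin of precursor miRNAs, had 3.96, 5.78, 95.8 and 15.5 (change 1.12). Both lay inside 2-fold with 5 added. Lower were Ddx19b, a helicase that strips proteins from exported mRNA (4.18, 3.98, 27.3 and 22.9, change -1.64), and Eny2, of the TREX-2 export complex (69.8, 85, 604 and 555, change -1.58, and -0.73 after GC centring).

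Splicing genes leaned to a lower nuclear share. Of 76 spliceosome and hnRNP genes, 22 were at least 2-fold lower (28.9%, against 15% of all genes) and 4 higher (5.26%). The median was -0.31. Luc7l2, a U1 snRNP protein, had 349, 4138, 78 and 3696 (change -3.93) and holds the stretch. Hnrnpd, which binds AU-rich elements, had 12.1, 17.4, 38 and 102 (change -2.79). Srsf2, an SR protein of nuclear speckles, had 48.6, 76.9, 261 and 437 (change -2.06). For Hnrnpd and Srsf2 the null cytoplasm was above WT, by 2.22 and 1.62, and the nuclei lay within 2-fold. Cdc5l, a subunit of the active spliceosome, went the other way with 15.1, 161, 14.6 and 15.3 (change 1.48). After GC centring the list's median was -0.08, with 20 genes lower (26.3%, against 12.9% of all genes) and 4 higher (5.26%, against 14.1%).

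The cleavage and polyadenylation list had 8 of 32 genes higher (25%) and 3 lower (9.38%), with a median of 0.00 because most members lay near the middle. After GC centring 6 were higher (18.75%, against 14.1% of all genes) and 1 lower (3.125%, against 12.9%). Cpsf3l, the endonuclease of the Integrator complex, had 11.6, 17.5, 283 and 32.1 (change 1.69). Cstf1, of the cleavage stimulation factor, had 18.1, 48.6, 408 and 90.7 (change 1.58). Ints7, an Integrator subunit, had 1.09, 5.85, 12.2 and 3.02 (change 1.93), while Ints8 had 13.5, 18.6, 143 and 151 (change -1.58). Subunits of 1 complex thus lay on both sides.

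Decay of mRNA in the cytoplasm begins with the shortening of its tail by CCR4-NOT and removal of its cap. Of 31 genes of these steps, 9 were lower (29%, against 15% of all genes) and 1 higher (3.23%, against 15.9%). The median was -0.32, and -0.40 after GC centring. With that centring 6 were lower (19.4%, against 12.9% of all genes) and 1 higher (3.23%, against 14.1%). Pnrc1, which acts with the decapping enzyme, had 82.8, 63.1, 319 and 516 (change -3.06). Btg1, which binds the deadenylase, had 6.98, 7.6, 30.4 and 42.4 (change -2.21), and Zfp36l2, a binder of AU-rich elements, had 1.54, 23.4, 9.35 and 156 (change -1.91). The 1 higher gene was Cnot10, a CCR4-NOT subunit (18.9, 36.8, 284 and 55.4, change 1.29). Pnrc1 and Btg1 differed in both compartments in opposite directions, while Zfp36l2 was higher in both null columns.

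Stored mRNA of the growing oocyte is held by a set of RNA-binding proteins. Of 25 genes for such proteins, 8 were lower (32%, against 15% of all genes) and 2 higher (8%, against 15.9%). The median was -0.11. Lsm14a, a P-body protein, had 100.3, 65.3, 705 and 405 (change -1.80), with rescaled differences of -1.71 (nucleus) and 0.09 (cytoplasm). Cpeb3, of the cytoplasmic polyadenylation family, had 7.72, 11.6, 47.8 and 57 (change -1.58). Patl2, a translational repressor of oocytes, had 22.2, 113, 814 and 342 (change 1.6). Ybx2, the main mRNA-packing protein of germ cells, lay nearest the list median with 144, 614, 916 and 1057 (change -0.11), as both compartments were higher in null by about the same amount (0.99 and 1.09).

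Of 76 mitochondrial ribosomal protein genes, 17 were higher (22.4%, against 15.9% of all genes) and 1 lower (1.32%), with a median of 0.39. After GC centring, 10 were higher (13.2%, against 14.1% of all genes) and 1 lower (1.32%, against 12.9%). The median was then 0.31. Mrps11 had 18.5, 74.1, 473 and 135 (change 1.8). Mrps26, whose transcript holds the stretch, had 13.5, 136, 511 and 369 (change 1.79). Mrpl43, the lower one, had 246, 2182, 195 and 1104 (change -1.32). The null nucleus of Mrps26 was higher by 2.21 on the log2 scale, and both null columns of Mrpl43 were higher, by 2.04 and 3.36.

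Of 46 proteasome genes, 9 were higher (19.6%, against 15.9% of all genes) and 2 lower (4.35%, against 15%). The median was 0.46. After GC centring it was 0.32, with 4 higher (8.70%, against 14.1% of all genes) and 2 lower (4.35%, against 12.9%). Psmc4 and Psmc2, ATPases of the regulatory particle, had 113, 172, 2515 and 371 (change 1.37) and 75.8, 77.3, 1519 and 162 (change 1.26). On the rescaled log2 scale, null minus WT for Psmc4 and Psmc2 was -1.87 and -2.33 in the cytoplasm, and -0.50 and -1.07 in the nucleus. Psme1, a subunit of another proteasome activator, had 1.37, 0, 22 and 11.3 (change -2.48). Its size depends on the added 1, since the change was -0.94 with 5 added. Psme3, the nuclear proteasome activator, had 86.5, 115, 557 and 432 (change -1.20). Of 83 respiratory chain genes, 8 were higher (9.64%) and 6 lower (7.23%), both under the shares of all genes, with a median of 0.25. Ndufv1, of complex I, had 56.4, 88.3, 1092 and 135 (change 1.66), Uqcrc1, of complex III, had 6.82, 80.1, 259 and 223 (change 1.74), and Uqcrb, also of complex III, had 132, 215, 1496 and 1943 (change -1.66). Genes of 1 complex could thus differ in direction.

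Of the 86 cytoplasmic ribosomal protein genes, 74 lay within 2-fold (86%, against 69.1% of all genes), and 6 were higher and 6 lower (6.98% each). The median was 0.26, with a range from -6.49 (Rps27) to 2.46 (Rpl26). Rpl3, of the large subunit, had 42.5, 84.2, 1250 and 174 (change 1.83), and Rpl26 had 29.6, 62.6, 621 and 58.6. Rpl34, with 278, 565, 493 and 1662 (change -2.71), was on the other side. These genes have many processed copies, so single values are uncertain. Of 53 translation initiation factors, 7 were higher (13.2%, against 15.9% of all genes) and 3 lower (5.66%, against 15%), with a median of 0.16. Eif3j, a factor that binds the small ribosomal subunit, had 15.7, 16.3, 0.0422 and 85.5 (change -6.57), a size set by the added 1 since its WT cytoplasm lay near 0. Eif4ebp1, the repressor of cap binding controlled by mTOR, had 1.65, 30.6, 65.9 and 92.8 (change 1.57), and Eif4a2, a cap complex helicase, had 73.5, 65.3, 703 and 547 (change -1.79). Of 62 nucleolar genes, 9 were higher (14.5%) and 3 lower (4.84%), with a median of 0.21. Ddx56, a nucleolar helicase, had 21.5, 39.2, 508 and 66.4 (change 1.79). Nip7, of ribosome assembly, had 1210, 15643, 366 and 13610 (change -3.50) and holds the stretch. Among 13 RNA polymerase II subunits, 1 was higher (7.69%) and 2 lower (15.4%), with Polr2k at 377, 269, 2750 and 2454 (change -2.31).

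**Figure D4:**
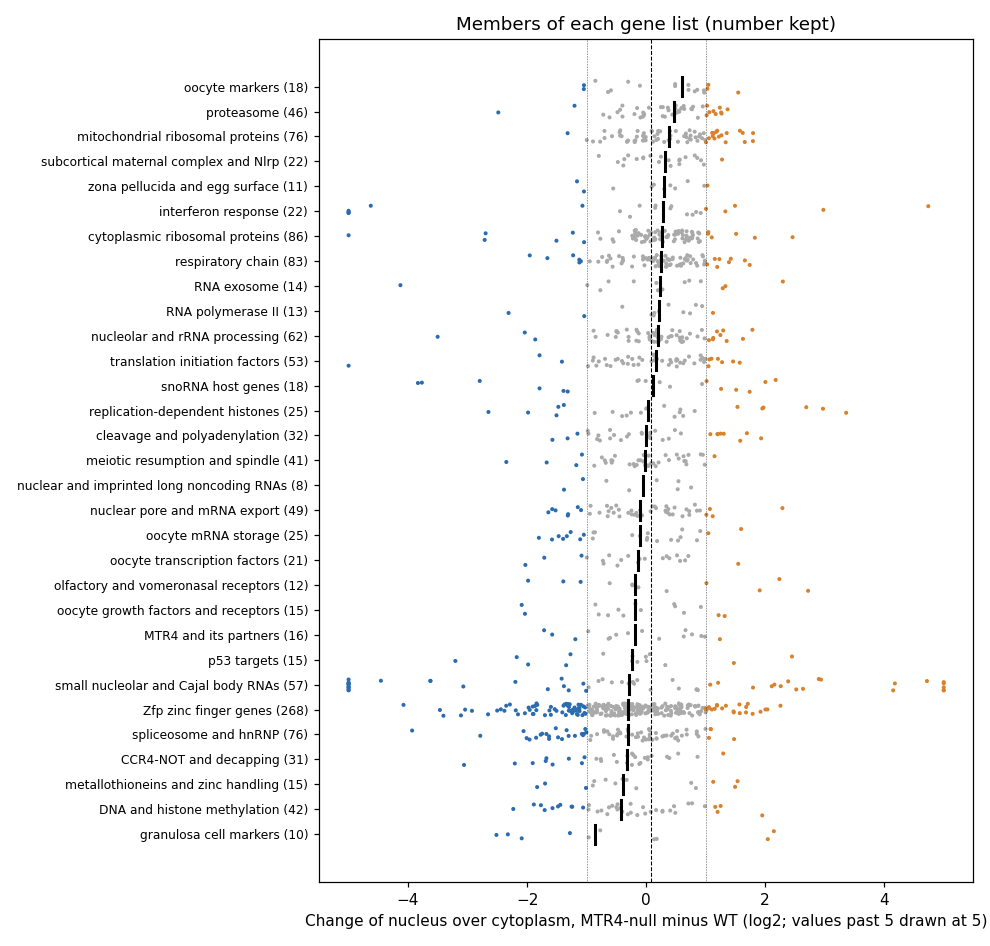
Change in nuclear share (x axis, log2, null minus WT, values past 5 drawn at 5) of every kept member of each gene list, 1 point per gene, with the number kept in brackets. Thick bars are list medians, the dashed line is the median of all genes (0.07) and the dotted lines mark 2-fold. Medians lie between -0.87 for granulosa cell markers and 0.60 for oocyte markers, and the points of the small nucleolar RNAs reach both edges. Most granulosa markers were under 5 in both nuclei.

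Small nucleolar RNAs guide the modification of ribosomal RNA and are trimmed by the exosome. Of 114 such genes, 57 were kept, with 19 higher (33.3%) and 23 lower (40.4%). The median was -0.30, but 0.062 above that of all genes with divisors from genes at 20 or more. Many of these values are 0 in a column. Snora44 was listed at 208 and 0 for the nuclei and at 0 and 404 for the cytoplasms (WT, then null), and Snord89 at 0, 479, 197 and 0. With 79 of 98 kept small RNA genes at 0 somewhere, the size of such changes is set by the added 1. The libraries copy polyadenylated RNA, so these values do not cover mature small RNAs.

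The host genes of small nucleolar RNAs carry them in introns. Of 18 hosts, 6 were higher and 6 lower (33.3% each, against 15.9% and 15% of all genes), with a median of 0.11. Snhg3 had 8.70, 140, 20.9 and 1368 (change -3.83), and was among the genes that crossed from nuclear to cytoplasmic. Snhg7 had 5.31, 17.9, 2.72 and 67.4 (change -3.77), and Snhg11 had 11.3, 102, 1.44 and 73.1 (change -2.80) and holds the stretch as its reverse complement. Snhg8 had 1.87, 23.2, 14.9 and 10.8 (change 2), with a null nucleus above WT and cytoplasms that were closer. Gas5, the host of many such RNAs, lay near the middle with 6.88, 34.1, 64.2 and 68.5 (change 0.23). The 18 hosts therefore split by gene, and no common direction was seen.

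Of 18 nuclear or imprinted long noncoding RNAs, 8 were kept, 2 of them lower (25%). Malat1, which gathers at nuclear speckles, had 22.7, 364, 9.83 and 136 (change -1.38). It was higher in both null columns, and within each genotype the nucleus held the higher value. Rmrp, the RNA of a ribonucleoprotein that processes ribosomal RNA, had 1.85, 205, 4.17 and 383 (change -1.06). Neither call held under quantile normalization or with 5 added, and that of Malat1 was -0.84 after GC centring. The wider class of long noncoding RNA genes, by RefSeq gene type, held 538 kept genes. Of these, 146 had a higher nuclear share in null (27.1%, against 15.9% of all genes) and 99 a lower one (18.4%, against 15%), with a median of 0.27. Of 99 transcribed pseudogenes 38 were higher (38.4%) and 12 lower (12.1%). For the long noncoding RNA genes the median of nucleus minus cytoplasm was -0.01 in WT and 0.34 in null.

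Replication-dependent histone mRNAs end in a stem-loop in place of a poly(A) tail, so only their polyadenylated forms were measured. Of 68, 25 were kept, with 6 higher (24%) and 5 lower (20%), and a median of 0.03. Hist1h4i had 0.7, 110, 59.5 and 171 (change 3.36), Hist2h2bb had 2.22, 35.4, 77.5 and 43.5 (change 2.69), and Hist1h2bc had 56.2, 210, 558 and 1497 (change -1.51). All 3 were higher in the null nucleus. Their reads may be split among near-identical copies.

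Of 11 zona pellucida and egg surface genes, 1 was higher (9.09%) and 2 lower (18.2%). Zp1, a zona glycoprotein, had 639, 1037, 15155 and 3025 (change 1.03), and Oosp1, an oocyte-secreted protein, had 1845, 1526, 18578 and 7970 (change -1.04). Both were inside 2-fold after GC centring, at 0.70 and -0.51. Of 15 growth factor and receptor genes, 2 were higher and 2 lower (13.3% each). Fgf8, a growth factor from the oocyte to its cumulus cells, had 117, 189, 2164 and 350 (change 1.32, and 0.92 after GC centring), and Bmpr1a, a receptor of bone morphogenetic proteins, had 9.57, 11.8, 84.8 and 113 (change -2.04). Of 21 transcription factors, 1 was higher (4.76%) and 3 lower (14.3%). Nobox, a homeobox factor that drives oocyte genes, had 216, 254, 6401 and 646 (change 1.55), and Pou5f1 (Oct4) had 72.6, 84.4, 340 and 409 (change -2.03). In the nucleus these genes differed alike from WT (-0.87 and -0.88), while in the cytoplasm Nobox was lower in null (-2.42) and Pou5f1 higher (1.15).

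The subcortical maternal complex is a store of proteins under the oocyte membrane. Of its 22 genes and Nlrp relatives, 1 was higher (4.55%) and 0 were lower. The higher one was Nlrp2 (64, 77.2, 1495 and 187, change 1.27). The median was 0.31, though under quantile normalization it stood at -0.087 against that of all genes. Of 41 genes of meiotic resumption and the spindle, 36 lay within 2-fold (87.8%, against 69.1% of all genes). Of the rest, 1 was higher (2.44% of the list) and 4 were lower (9.76%). Sgol2, which guards centromeric cohesion, had 77.2, 563, 122 and 1170 (change -2.35), and Cks2, a small partner of cyclin-dependent kinases, had 687, 576, 7891 and 5309 (change -1.67). Sgol2 was higher in both null columns. The list's median was -0.02, so these genes lay in the middle of the distribution.

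Of 42 genes of DNA and histone methylation, 10 were lower (23.8%, against 15% of all genes) and 4 higher (9.52%, against 15.9%). The median was -0.42, and -0.16 after GC centring. Bmi1 and Suz12, of the Polycomb complexes, had 90.5, 46.6, 645 and 397 (change -2.23) and 58.4, 35.8, 347 and 200.5 (change -1.89). Suv39h2, a methyltransferase of heterochromatin, had 30.9, 19.8, 179 and 99.8 (change -1.77). In all 3 the nucleus was the part that differed, lower in null (-2.05, -1.79 and -1.72), with the cytoplasm level relative to the typical gene. Ehmt2, which also methylates histone H3, was higher with 0.539, 11.4, 22.3 and 22.5 (change 1.95). Dnmt1, the maintenance DNA methyltransferase, had 250.1, 681, 2312 and 2142 and lay nearest the list median (change -0.44).

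Of 53 interferon response genes 22 were kept, with 5 higher (22.7%, against 15.9% of all genes) and 6 lower (27.3%, against 15%). The median was 0.28. The list spread widely. Irf9, the DNA-binding part of the interferon-activated factor, had 8.02, 81.8, 0.711 and 605 (change -5.88), and the named genes Slfn5, Bst2 and Tapbpl also belong here. Ifngr2, a chain of the interferon gamma receptor, had 0.988, 60.8, 9.76 and 4.15 (change 4.74). Oas1f, of the oligoadenylate synthase family, had 37.7, 9.70, 866 and 5.69 (change 2.98), and its relative Oas1h had 437, 297, 9841 and 597 (change 1.49). The Oas1 genes are close copies, so their values are uncertain. Of 15 p53 target genes, 2 were higher (13.3%) and 5 lower (33.3%). After GC centring 2 were higher (13.3%, against 14.1% of all genes) and 3 lower (20%, against 12.9%). Ei24, an early p53 target, had 10.8, 20.6, 24.2 and 121 (change -3.21), Gadd45a, a stress-response gene, had 2.1, 6.99, 7.18 and 36.5 (change -2.18), and Aen, a p53-induced nuclease, had 0.808, 37.5, 44.2 and 74.8 (change 2.45).

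Of 15 zinc handling genes, 3 were higher and 3 lower (20% each). The median was -0.40, and -0.42 after GC centring, and 5 of the 15 lay above the median of all genes. Mt1, a metallothionein that binds zinc, had 2.82, 2208, 45.1 and 3973 (change 1.13, and 0.82 after GC centring). Its 2 compartments were both far higher in null, by 8.37 and 7.25 on the log2 scale, so its share differed little beside its level. Slc30a1, a zinc exporter of the cell membrane, had 3.17, 17.9, 18.6 and 104 (change -1.83). Slc39a1, a zinc importer, had 0.8, 56.6, 41.8 and 205 (change 1.54, and 0.90 with 5 added). Zfp genes, the zinc finger transcription factors that often repress repeats, had 268 kept members. Of these, 59 were lower (22%, against 15% of all genes) and 22 higher (8.21%, against 15.9%), with a median of -0.30. After GC centring the median was -0.06, with 41 lower (15.3%, against 12.9% of all genes) and 33 higher (12.3%, against 14.1%). Zfp113 had 88.7, 945, 18.7 and 996 (change -4.08) and holds the stretch as its reverse complement, Zfp607 had 486, 8098, 124 and 5905 (change -3.47), and Zfp637 had 0.494, 18, 42.9 and 56.8 (change 2.26). Reads of these related genes may be shared.

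The change was related to GC content, to 3' UTR length and, with a Spearman correlation of -0.19, to transcript length. Split into 5 equal groups by transcript GC, the genes of 29.7 to 44.1% GC were lower in 29.8% and higher in 6.30%, and those of 55.5 to 82.9% GC were lower in 7.63% and higher in 26.1%. The median change climbed from -0.51 to 0.48 across these groups. Across 11271 genes the Spearman correlation of change with GC was 0.33. It was 0.33 for nucleus minus cytoplasm in null and -0.15 in WT, and 0.24 for null minus WT in the nucleus against -0.02 in the cytoplasm. The relation with GC thus lay in the nuclear comparison of null with WT, not in the cytoplasmic one. GC content can affect the amplification of low-input libraries, and its part in these results was not tested.

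Short 3' UTRs went with a higher share. In the group with the shortest 3' UTRs (up to 331 bases) 24.6% of genes were higher and 7.63% lower, and in the group with the longest (2501 bases or more) 9.15% were higher and 20.1% lower. The correlation over 10597 genes was -0.24 for the change, and for null minus WT it was 0.031 (nucleus) and 0.21 (cytoplasm). The relation with 3' UTR length thus lay in the cytoplasmic comparison. Exon number had no such relation with the change (0.02), yet 220 coding genes with a single exon were lower in 58 (26.4%) and higher in 30 (13.6%). After the change had been centred within 20 bins of GC, 1594 genes were higher (14.1%) and 1458 lower (12.9%), and the SD over genes went from 1.24 to 1.19. Most of the spread between genes was left after this centring.

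**Figure D5:**
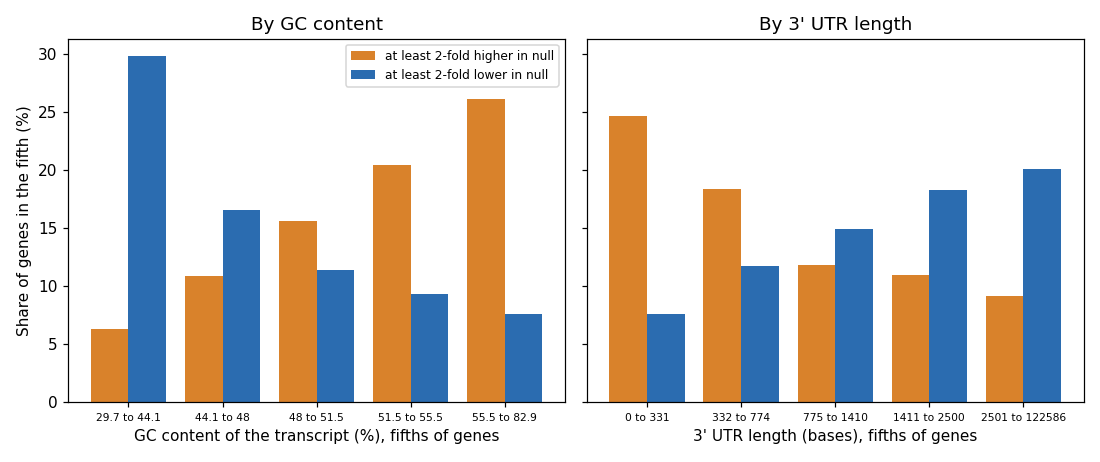
Percent of genes (y axis) with a nuclear share at least 2-fold higher (orange) or lower (blue) in null, in 5 equal groups of genes by GC content of the transcript (left, x axis in percent) and by 3' UTR length (right, x axis in bases). The higher share climbs from 6.30% to 26.1% with GC and drops from 24.6% to 9.15% with 3' UTR length.

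Markers of other cells were checked in each column. All 18 oocyte markers had at least 5 in every column, summing to 2.29 to 3.88% of the column totals. In null, 3 of them had a higher nuclear share (16.7%) and 2 a lower one (11.1%). Their median was 0.60, but -0.37 against that of all genes under quantile normalization. Granulosa cells surround the oocyte, and their 26 markers summed to 0.0248%, 0.0133%, 0.0378% and 0.0271% of the column totals (nuclei first, WT before null). Serpine2 alone held most of each sum (129, 158, 2018 and 550). Foxl2, which defines granulosa cells, had 0.019, 0, 0.117 and 7.10, and Nr0b1 was listed at 0 in all but the null cytoplasm (2.13). Of the 10 kept markers 2 were higher (20%) and 4 lower (40%), with a median of -0.87. Among the lower ones was Hsd3b1, a steroid enzyme, with 0.678, 0.956, 15.3 and 42 (change -2.52). Others were lower in the null cytoplasm, as deposited: Inha, an inhibin subunit (1.92, 0, 253 and 86.8), the aromatase gene Cyp19a1 (6.79, 2.45, 78 and 15.4), the keratin gene Krt8 (2.08, 6.71, 55 and 8.46) and Hsd17b1, a steroid enzyme (0.278, 3.54, 18.9 and 8.26). After rescaling, the cytoplasm of Cyp19a1 (-1.35) and Krt8 (-1.62) was still past 2-fold lower, but Inha (-0.64) and Hsd17b1 (-0.26) lay within 2-fold. Kitl (0.412, 0.491, 6.34 and 14.7) and Wt1 (0.056, 0.327, 1.41 and 16.4) were higher in the null cytoplasm as deposited. The part of granulosa RNA in other results was not tested. Blood and stromal markers summed to 0.0013 to 0.0030%, with Hbb-b1 and Lyz2 at 0 in every column. Pecam1, an endothelial adhesion protein, held much of the sum (10.9, 14, 173 and 30.1), and Cd68, a macrophage protein, had 1.3, 1.5, 17.1 and 7.22. Of 1416 olfactory and vomeronasal receptor genes 12 were kept, 4 higher (33.3%) and 3 lower (25%), with Olfr1104 at 2.49, 9.31, 24.7 and 1.99 (change 2.72).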

How the data were processed

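The deposited table holds 1 column per genotype and compartment; per its name the values are FPKM, but the authors' columns are not on 1 scale, so they were treated as a score. Per the submitters' processing notes, TopHat2 2.1.1, Cufflinks 2.2.1 and mm9 were named without their roles. On averaging and scaling of libraries the sources used here say nothing. With no column for a single library, genes were called by size alone (2-fold).

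Columns were rescaled by median ratios to their geometric mean over 14273 genes above 0 in all 4 (divisors 0.281 for WT nucleus, 0.604 for null nucleus, 3.41 for WT cytoplasm and 1.84 for null cytoplasm). Genes with a deposited value of at least 5 in 2 columns were kept, 1 was added and log2 differences were taken, which understates the change of low genes. The code was tested on simulated data. Gene types came from RefSeq (11336 of the kept genes matched) and transcript GC, length, UTRs and the 25-base stretch from GENCODE M21 (11271 matched), in Python 3.11.15 with pandas 2.3.3 and numpy 2.4.6.

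Genes named were taken from the target, the 15 highest and 15 lowest ranked genes, the members with the largest change of each of 32 lists (up to 3 per direction) and the member nearest a list's median. Genes that crossed sides are examples by size chosen after their values were seen. Also chosen after their values were seen were the markers Serpine2, Foxl2, Nr0b1, Inha, Cyp19a1, Krt8, Hsd17b1, Kitl, Wt1, Pecam1, Cd68, Hbb-b1 and Lyz2. Members, lists and the stretch were chosen with earlier results of these data known. Alternatives were other scales, added constants, filters and folds, and, chosen after seeing the data, GC centring, a filter on the WT columns, sides without centring on the median gene and leaving out genes with the stretch.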

Additional observations from a re-analysis of the deposited data

How the results depend on the processing

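The direction of the typical gene rests on the column scale, and no spread between libraries was available, so calls show size only. No paired analysis was possible because the table holds 1 column per genotype and compartment with no replicate numbers, and leaving out libraries could not be run. Against 1817 genes higher and 1714 lower, 321 and 433 passed 4-fold. As deposited, 8881 were higher and 254 lower; a lower cytoplasm was seen in 4992 and a higher nucleus in 4398 of the higher genes, and a higher cytoplasm in 229 and a lower nucleus in 24 of the lower genes. Relative to all genes, medians as deposited were -1.23 for small nucleolar RNAs, -1.16 for nuclear long noncoding RNAs and -1.21 for granulosa markers. Snhg4 (change 1.74) turned to -0.083 relative to the typical gene as deposited. With divisors from genes at 20 or more, 436 higher genes had a lower cytoplasm and 357 lower genes a lower nucleus. With 0.1 added, the granulosa median was -1.18, and with 5 added it was -0.51. With 5 added, 487 higher genes had a higher nucleus, 568 lower genes a higher cytoplasm and 387 a lower nucleus. Without the filter on low values, 2853 genes were higher and 2645 lower, 1414 with a higher and 1079 with a lower nucleus, and the small nucleolar RNA median was -1.38. With at least 5 in all 4 columns, 884 were higher and 959 lower, 147 with a higher nucleus, 410 with a higher cytoplasm and 355 with a lower nucleus. With at least 5 in both WT columns, an alternative chosen after seeing the data, these were 922, 1050, 150 and 415. Sides moved as follows, always as genes nuclear in WT, in both, and crossing, then the same for cytoplasmic ones where a number moved by over 1.5 times. With at least 5 in all columns there were 682, 267 and 44, then 143, 12 and 8; with at least 5 in both WT columns 730, 283 and 47, then 154, 14 and 13. As deposited, 140 nuclear genes crossed and 47 were cytoplasmic in both. Without the filter, 1137 were cytoplasmic in WT, 160 in both and 101 crossed. With 0.1 added, 155 were cytoplasmic in both and 91 crossed; with 5 added, 45 nuclear genes crossed, and 255 were cytoplasmic in WT, 24 in both and 17 crossed. Without centring on the median gene, chosen after seeing the data, 969 were nuclear in WT and 475 in both, and 947 were cytoplasmic in WT and 77 crossed. Fewer genes enter under the stricter filters; for the other shifts the cause was not tested. Quantile normalization gave 1958 and 1870. Of 2089 values of 206 named genes under the alternatives, 2011 kept their direction and side of 2-fold. Of 335 list medians, 27 changed sign, 10 of them from at least 0.2 in size.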

Other observations

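Small RNA genes, which were left out of the ranking, held the outermost values. Mir32 was listed at 208, 0, 0 and 3480 in WT nucleus, null nucleus, WT cytoplasm and null cytoplasm, and Mir3968 at 0, 1195, 1045 and 1061. Gm9786, of another class, stood at 43.7, 56.1 and 5600 in the first 3 columns and near 0 in the null cytoplasm. Of 224 kept genes with a 0 in some column, 139 passed 2-fold.

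More genes crossed between the sides than those described. Il1f9, a cytokine of the interleukin 1 family, had 7.52, 97.4, 300.3 and 116 (change 3.02), and Cyp20a1, an orphan cytochrome P450, had 3.26, 5.48, 115 and 5.22 (change 2.86). Gm7334 had 7.03, 37.8, 4.88 and 319 (change -4.87). Of genes with both low GC (the lowest group) and transcripts of 4795 bases or more, 30.7% had a lower nuclear share in null and 4.68% a higher one. Of genes with the highest GC and transcripts of up to 1568 bases, 7.45% were lower and 35.9% higher.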
